A study of Mus musculus with 6 samples.

Results

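DNA methylation is written and removed by a small set of enzymes, and 9 of their genes were followed here on microarrays of mouse gonadal cells. They are the methyltransferases Dnmt1, Dnmt3a and Dnmt3b, their cofactors Uhrf1 and Dnmt3l, the dioxygenases Tet1, Tet2 and Tet3, and the glycosylase Tdg. The genes were listed by name, with earlier results of these data known. All 9 were found among the 19084 genes with a symbol on the array, through 13 of its 26423 probes. Tet1 and Tet3 had 3 probes each and the other genes 1 each.

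DNMT1 copies methyl marks onto the new strand after replication, guided by UHRF1, which binds hemimethylated CpG sites. DNMT3A and DNMT3B place methyl groups on unmodified sites, and DNMT3L, which lacks catalytic activity, stimulates them and is known for its part in male germ cells before birth. TET enzymes oxidise 5-methylcytosine, and TDG excises the most oxidised forms so that base excision repair can restore an unmodified cytosine. Primordial germ cells are known for losing most of their methylation around the time they settle in the gonad, and male germ cells regain it before birth.

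The study used 6 single-colour (Cy5) arrays in 3 groups of 2, all of strain ICR. GSC colony arrays held RNA from testis cells of 80 mice aged 0 to 2 days after birth, grown into colonies for 7 days in 5% O2 on laminin (200 ng/cm2) with epidermal growth factor (10 ng/ml). CD49f+ sorted arrays held RNA from uncultured testis cells of 100 mice of that age, selected with magnetic beads through an antibody to CD49f, an integrin subunit; their oxygen is labelled only as physiological hypoxia. PGC colony arrays held RNA from gonad cells of 67 embryos at E11.5, of unstated sex, grown into colonies under the GSC colony conditions. PGC stands for primordial germ cells, and the labels give glandular stem cells for GSC. Colonies were picked from cultures of total, unsorted gonad or testis cells, so culture and the way cells were chosen cannot be told apart in any comparison with sorted cells. Nothing tells if the 2 arrays of each group had their own cell preparation: the p-values rest on the spread of each pair, which may be technical.

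Levels are log2 intensities after background correction and quantile normalization between arrays, and the 30th percentile of each array, 7.82, is used as a level under which a probe counts as dim, since no detection calls were used. Median deposited intensity was 558 to 606 on GSC colony arrays, 393 to 406 on sorted arrays and 541 to 587 on PGC colony arrays. Of 17 germ cell markers, Dppa3, Sall4, Tdrd1 and Tfap2c were dim on every array, Sohlh1 and Zbtb16 on all sorted and PGC colony arrays, and Dazl on both PGC colony arrays, whereas Ddx4, a germ cell helicase, lay between 9.84 and 10.25 in the 3 group means. Of the 17 markers, 4 were dim on both GSC colony arrays, 6 on both sorted arrays and 7 on both PGC colony arrays, so no group had all of them above the level. Of 13 tested, 5 were higher and 3 lower in GSC colonies than in sorted cells, where 22.5% of all genes were higher and 24.5% lower. Of these 5, Zbtb16 entered the test only through the GSC colony arrays, where it is high. The summed level of 9 macrophage markers was 135984 to 138420 on sorted arrays against 4103 to 4494 on GSC colony and 11410 to 13418 on PGC colony arrays. For 10 Sertoli markers it was 802272 to 882553, 291423 to 297527 and 229245 to 253312, and for 10 fibroblast markers 23813 to 26691, 594209 to 603045 and 358247 to 358475. Dim on both arrays of a group were the macrophage markers C1qb, Pf4 and Tyrobp in GSC colonies and Pf4 in PGC colonies, the Sertoli marker Amh in GSC colonies, and the fibroblast marker Col1a1 in every group. The part of these cell types in the results below was not tested, and in such mixed RNA fewer cells of a type and less RNA per cell cannot be told apart.

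Most of the 9 genes were lower in GSC colonies than in sorted testis cells. In limma's test across 15459 genes, 7 fell, 1 rose (Dnmt3l) and 1 did not pass (Tdg) at an adjusted p under 0.05, in a comparison where 47.1% of all genes tested passed, 22.5% higher and 24.5% lower. Between PGC colonies and sorted cells 3 fell (Dnmt1, Uhrf1 and Tet1) and 6 did not pass, where 46% of all genes passed, 22.8% higher and 23.2% lower. Between PGC and GSC colonies 3 rose (Dnmt3a, Tet1 and Tet2), 1 fell (Dnmt3l) and 5 did not pass, where 15.1% of all genes passed, 7.08% higher and 7.98% lower. Dnmt3l entered all 3 comparisons only through the GSC colony arrays, where it is high, and that choice favoured its calls. The median difference over the 9 genes was -0.83, -0.54 and 0.36 in these comparisons, beside -0.01, -0.02 and 0.01 over all genes tested. The arrays of the groups did not overlap for 8 of the 9 genes between GSC colonies and sorted cells, for 9 between PGC colonies and sorted cells and for 7 between the colonies, where 75.6%, 71.1% and 56.7% of all genes tested did not overlap. The comparisons share arrays, so they are not independent of each other. These directions are relative to the array: sorted arrays were dimmer, and without normalization between arrays the median of all genes moved to 0.47 and 0.42 for GSC and PGC colonies against sorted cells. On that scale 4 members were lower and 1 higher in GSC colonies, and 2 lower and 3 higher in PGC colonies, than in sorted cells. Of all 15459 genes, 1732 were lower and 8179 higher in GSC colonies there, and 1838 lower and 7573 higher in PGC colonies.

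**Figure D1:**
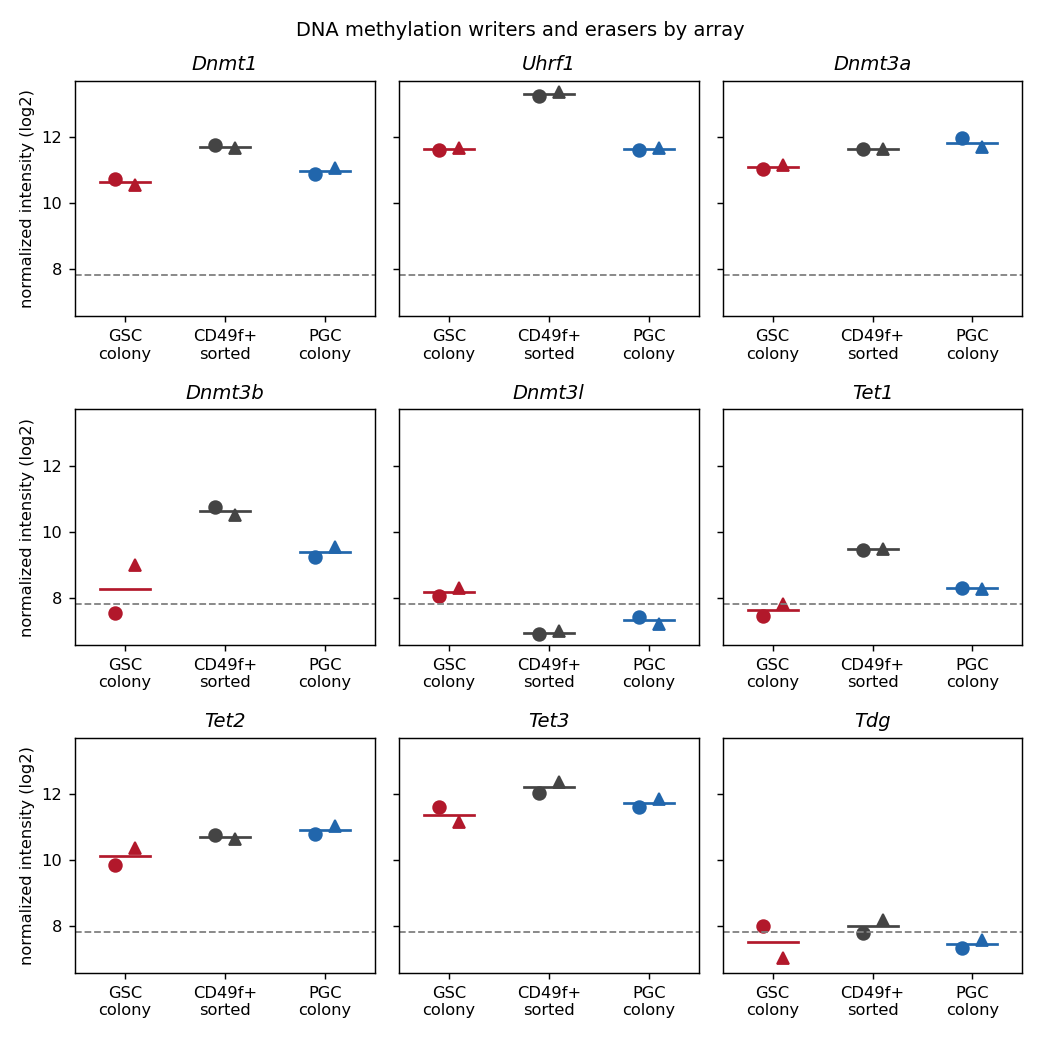
Normalized log2 intensity (vertical axis) of the 9 genes on each array, by group; circles are replicate 1, triangles replicate 2, bars the group mean, and the dashed line the level of 7.82. Sorted cells have the highest mean for 6 genes, among them Uhrf1 at 13.30, while Dnmt3l is highest in GSC colonies at 8.17 and Dnmt3a and Tet2 in PGC colonies at 11.84 and 10.92.

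The sequence just before the transcription start is shown for the 3 genes that fell most between sorted cells and GSC colonies and for the gene that rose, because CpG sites, the substrate of these enzymes, are very unevenly spread among them. Each is the 250 bases before a RefSeq start on GRCm38.p6, on the gene's strand, with CpG sites in capitals; for Uhrf1 and Dnmt3l, which have several listed starts, the most upstream one was taken. The windows are chr2:153649199-153649448 on the plus strand for Dnmt3b, chr10:62887325-62887574 on the minus strand for Tet1, chr17:56303087-56303336 on the plus strand for Uhrf1 and chr10:78042037-78042286 on the plus strand for Dnmt3l.
Dnmt3b: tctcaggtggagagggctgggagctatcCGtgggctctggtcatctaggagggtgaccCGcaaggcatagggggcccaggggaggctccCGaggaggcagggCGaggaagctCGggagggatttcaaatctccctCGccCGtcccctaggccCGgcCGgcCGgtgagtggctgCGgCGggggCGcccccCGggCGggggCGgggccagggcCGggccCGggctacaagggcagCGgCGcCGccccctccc
Tet1: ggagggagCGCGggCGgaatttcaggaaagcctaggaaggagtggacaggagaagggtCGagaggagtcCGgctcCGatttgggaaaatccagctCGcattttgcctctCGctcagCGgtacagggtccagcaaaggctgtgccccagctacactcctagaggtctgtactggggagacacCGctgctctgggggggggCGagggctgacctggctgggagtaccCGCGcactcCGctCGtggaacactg
Uhrf1: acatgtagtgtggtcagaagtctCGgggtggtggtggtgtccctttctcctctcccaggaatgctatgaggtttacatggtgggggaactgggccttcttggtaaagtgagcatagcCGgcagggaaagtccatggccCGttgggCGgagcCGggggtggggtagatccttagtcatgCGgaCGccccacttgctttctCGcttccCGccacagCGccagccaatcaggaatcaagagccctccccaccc
Dnmt3l: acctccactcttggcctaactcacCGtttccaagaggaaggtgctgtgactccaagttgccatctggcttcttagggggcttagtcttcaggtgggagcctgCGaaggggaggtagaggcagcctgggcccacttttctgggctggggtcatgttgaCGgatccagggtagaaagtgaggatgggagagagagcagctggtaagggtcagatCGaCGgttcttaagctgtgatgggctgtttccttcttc
The Dnmt3b window held 21 CpG sites, Tet1 15, Uhrf1 10 and Dnmt3l 5, where the median of 32817 RefSeq windows of this length was 6. Over all 16 windows of the 9 genes the number ran from 2, at the most upstream Dnmt1 start, to 51 for Tet2, and the 3 Dnmt3l windows held 3 to 5. The downstream Uhrf1 start, not shown, had 30 CpG sites and 3 copies of the motif GGGCGG, and 1 further Dnmt3l start had 2 copies. The motif GGGCGG, the core of a GC box, was found on either strand 3 times in the Dnmt3b window, once each in those of Tet1 and Uhrf1 and not in that of Dnmt3l shown here; 32.7% of all windows held it. TTTNNCGC, a loose form of the E2F motif, was found 1 time in the Uhrf1 window, and 4.3% of all windows held it. Among the other listed starts it also occurred 1 time before the downstream Uhrf1 start and 2 times before 1 of the 3 Dnmt1 starts. Both motifs contain a CpG. Methylation itself was not measured.

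Uhrf1 was the clearest of the maintenance genes. Its level was 11.60 and 11.67 on GSC colony arrays, 13.24 and 13.37 on sorted arrays, and 11.62 and 11.67 on PGC colony arrays. Both sorted arrays lay far above all 4 colony arrays, and the colony groups overlapped. Uhrf1 was 3.18-fold lower in GSC colonies than in sorted cells (log2 difference -1.67 ± 0.11 SE; limma adjusted p = 5.6e-05) and 3.16-fold lower in PGC colonies (-1.66 ± 0.11; limma adjusted p = 6.2e-05). Between PGC and GSC colonies it differed by 0.01 ± 0.11 (limma adjusted p = 0.98), with a 95% interval of -0.26 to 0.27. The deposited intensities show the gap without normalization, at 7096 and 8227 on sorted arrays and 3447 to 3733 on colony arrays.

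Dnmt1, the maintenance methyltransferase that UHRF1 recruits, moved less. It read 10.72 and 10.55 in GSC colonies, 11.76 and 11.66 in sorted cells, and 10.88 and 11.06 in PGC colonies, so no group overlapped another. It fell by 1.07 ± 0.12 from sorted cells to GSC colonies, a 2.10-fold difference (limma adjusted p = 0.00067). The corresponding fall to PGC colonies was 0.74 ± 0.12 (limma adjusted p = 0.0036), but it was -0.24 without normalization between arrays (adjusted p = 0.13), where the median of all genes was 0.42. The colony groups, neighbours in the order of levels, differed by 0.34 ± 0.12 and did not pass (limma adjusted p = 0.13; 95% interval 0.04 to 0.64).

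S phase genes, which mark replicating cells in which DNMT1 and UHRF1 are needed, were mostly lower in colonies as well. Of 16 tested, 13 fell and 2 rose (Rrm2 and Ccne1) in GSC colonies against sorted cells, with a median of -1.09, where 24.5% of all genes fell and 22.5% rose. In PGC colonies against sorted cells 11 fell and 1 rose (Ccne1), with a median of -0.64, where 23.2% of all genes fell and 22.8% rose. Cdk1, among the falls in both comparisons, was dim on every colony array. It entered the test only through the sorted arrays, where it is high, so its direction was built into that choice. Without normalization between arrays 9 were lower and 3 higher in GSC colonies, and 7 lower and 3 higher in PGC colonies. Of all 15459 genes, 1732 were then lower and 8179 higher in GSC colonies, and 1838 lower and 7573 higher in PGC colonies. Between the colonies 3 rose (Cdt1, Mcm2 and Mcm3), 1 fell (Rrm2) and 12 did not pass, where 7.08% of all genes rose and 7.98% fell. Chosen after their values were seen, the helicase subunit gene Mcm6 differed by -1.51 ± 0.13 and Top2a, a topoisomerase of dividing cells, by -1.68 ± 0.11 in GSC colonies (limma adjusted p = 0.00019 and 6.5e-05), and the proliferation marker Mki67 by -0.11 ± 0.15 (limma adjusted p = 0.59). The 2 that rose there, Rrm2 and Ccne1, differed by 2.02 ± 0.21 and 1.61 ± 0.11 (limma adjusted p = 0.00042 and 6.2e-05). The summed level of the list was 133066 to 134445 on sorted arrays, 82789 to 84374 on GSC colony arrays and 79618 to 82770 on PGC colony arrays. Whether the levels of Dnmt1 and Uhrf1 follow the share of dividing cells was not tested.

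The catalytic de novo enzymes did not behave alike. Dnmt3b, known for its high level in early embryonic cells, was 10.76 and 10.52 in sorted cells, 9.24 and 9.53 in PGC colonies, and 7.54 and 8.99 in GSC colonies. The GSC colony arrays lay far apart, replicate 1 under the dim level, and the groups did not overlap. Dnmt3b fell by 2.37 ± 0.43 from sorted cells to GSC colonies, a 5.17-fold difference (limma adjusted p = 0.0049). Leaving out GSC colony replicate 1 gave -1.64 and leaving out replicate 2 gave -3.07, past the threshold in both cases. PGC colonies lay between the other groups, with differences of -1.25 ± 0.43 from sorted cells (limma adjusted p = 0.057) and 1.12 ± 0.43 from GSC colonies (limma adjusted p = 0.15), and neither passed. The spread of the GSC colony pair enters both tests: without GSC colony replicate 2 the difference between colonies was 1.83 (adjusted p = 0.00025) and without replicate 1 it was 0.40 (adjusted p = 0.32). The difference of PGC colonies from sorted cells was -1.25 in a fit of only those groups (adjusted p = 2.0e-04), and -1.24 and past the threshold without either GSC colony array.

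Dnmt3a, the other catalytic enzyme, read 11.04 and 11.15 in GSC colonies, 11.64 and 11.65 in sorted cells, and 11.98 and 11.70 in PGC colonies. Its order differed from that of Dnmt3b, with PGC colonies highest. It rose by 0.74 ± 0.13 from GSC to PGC colonies, 1.67-fold (limma adjusted p = 0.014), and the difference was 0.68 without GSC colony replicate 1 (adjusted p = 0.057). PGC colonies and sorted cells differed by 0.19 ± 0.13 and did not pass (limma adjusted p = 0.29; 95% interval -0.13 to 0.51). The fall of 0.55 ± 0.13 from sorted cells to GSC colonies (limma adjusted p = 0.015) came with normalization: deposited intensities were 2375 and 2530 in sorted cells against 2354 and 2588 in GSC colonies. Without normalization between arrays the Dnmt3a difference was -0.0062 (adjusted p = 0.97), while the median of all genes was 0.47, so Dnmt3a was lower only relative to the other genes of its array. That call was also lost without GSC colony replicate 1 and without either sorted array (adjusted p = 0.069, 0.071 and 0.077).

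Dnmt3l, the regulator with no catalytic activity of its own, was the only one of the 9 genes with a higher mean in GSC colonies than in sorted cells. It was 8.06 and 8.28 in GSC colonies, 6.89 and 7.00 in sorted cells, and 7.42 and 7.21 in PGC colonies. Only the GSC colony arrays reached the level of 7.82, so the gene entered the test through the group where it is high, and a difference was built into that choice. Deposited intensities were 276 and 268 in GSC colonies, 47.5 and 44.0 in sorted cells, and 156 and 98.1 in PGC colonies. With the dim groups set to the level, the GSC colony mean of Dnmt3l exceeded that of sorted cells at least 1.28-fold and that of PGC colonies at least 1.28-fold, bounds that were not themselves tested. The measured differences were 1.23 ± 0.13 and -0.86 ± 0.13 (limma adjusted p = 0.00052 and 0.0090). PGC colonies and sorted cells were both dim and no fold is given (limma adjusted p = 0.065). Without either GSC colony array, or with a filter at the 50th percentile, Dnmt3l did not enter the test.

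**Figure D2:**
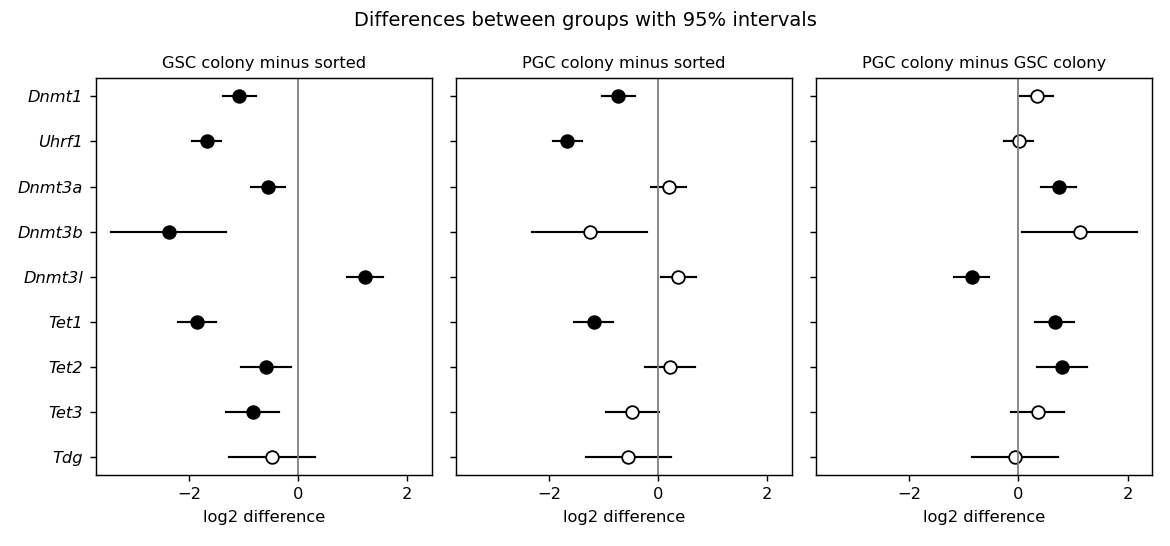
Log2 difference of each gene (horizontal axis) in the 3 comparisons, with its 95% interval from limma's fit of 6 arrays; filled points passed at an adjusted p under 0.05 over 15459 genes. The Dnmt3b intervals are the widest, with an SE of 0.43, and Dnmt3l lies right of 0 where the other 8 genes lie left of it, between GSC colonies and sorted cells.

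Tet1, the TET gene best known from pluripotent and early germ cells, had the largest difference among the erasers in both comparisons with sorted cells, and Tet2 between the colonies. Its brightest probe, PH_mM_0003989, read 7.44 and 7.80 in GSC colonies, 9.45 and 9.48 in sorted cells, and 8.29 and 8.27 in PGC colonies. The groups did not overlap, sorted cells were highest and both GSC colony arrays were dim. Tet1 was at least 3.13-fold lower in GSC colonies than in sorted cells, with a measured difference of -1.85 ± 0.14 (limma adjusted p = 0.00012). It fell by 1.18 ± 0.14 from sorted cells to PGC colonies (limma adjusted p = 0.00084). It was at least 1.38-fold higher in PGC than in GSC colonies, with a measured difference of 0.66 ± 0.14 (limma adjusted p = 0.029). This last call was lost in 6 of 19 other settings: without any 1 of the 6 arrays except GSC colony replicate 2, and in a fit of the colony groups alone (adjusted p = 0.064 to 0.15). It stood at the threshold with the replicate block (adjusted p = 0.050).

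A further Tet1 probe was also highest in sorted cells. PH_mM_0012713 read 7.45 and 7.25 in GSC colonies, 8.68 and 8.92 in sorted cells, and 7.61 and 7.93 in PGC colonies. Both GSC colony arrays and 1 PGC colony array were dim, so the probe entered the test mainly through the sorted arrays, where it is high, and no order of the colony groups is read from it. In a test of every named probe where 47.2%, 15.1% and 45.9% passed (GSC colonies against sorted cells, PGC against GSC colonies, and PGC colonies against sorted cells), it was at least 1.97-fold lower in GSC colonies than in sorted cells, with a measured difference of -1.45 ± 0.16 (limma adjusted p = 0.00058). Its measured difference between PGC colonies and sorted cells was -1.03 ± 0.16 (limma adjusted p = 0.0027), and the colony groups did not pass (limma adjusted p = 0.14). The last probe, PH_mM_0012824, lay between 6.84 and 7.18 on all 6 arrays, under the level, and was not tested.

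Tet2, which lacks the CXXC DNA-binding domain of its relatives, followed the pattern of Dnmt3a. It read 9.87 and 10.36 in GSC colonies, 10.76 and 10.63 in sorted cells, and 10.80 and 11.04 in PGC colonies. GSC colonies were lowest, and the other groups lay close to each other without overlap. It rose by 0.80 ± 0.19 from GSC to PGC colonies (limma adjusted p = 0.038), a call lost in 9 of 19 other settings, among them the replicate block (adjusted p = 0.052) and the removal of any array but GSC colony replicate 2; without GSC colony replicate 1 the difference was 0.55 (adjusted p = 0.12). The fall of 0.58 ± 0.19 from sorted cells to GSC colonies passed narrowly (limma adjusted p = 0.045) and was lost in 11 of 19 settings, among them the removal of any array but GSC colony replicate 2. Without normalization between arrays this Tet2 difference was -0.07 (adjusted p = 0.79), with deposited intensities of 1027 and 1468 in GSC colonies and 1286 and 1225 in sorted cells. PGC colonies and sorted cells differed by 0.22 ± 0.19 and did not pass (limma adjusted p = 0.40; 95% interval -0.24 to 0.68).

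Tet3, the TET gene known for acting on the paternal genome after fertilisation, was read by 3 probes, of which 1 differed in direction. The brightest, PH_mM_0003689, read 11.61 and 11.14 in GSC colonies, 12.04 and 12.37 in sorted cells, and 11.62 and 11.84 in PGC colonies. On it Tet3 fell by 0.83 ± 0.20 from sorted cells to GSC colonies (limma adjusted p = 0.015), a call lost without sorted replicate 2 (adjusted p = 0.086), without normalization between arrays (-0.27, adjusted p = 0.29) and with the mean of its probes (-0.31, adjusted p = 0.12). Its other comparisons did not pass (0.36 ± 0.20 between PGC and GSC colonies and -0.48 ± 0.20 between PGC colonies and sorted cells; limma adjusted p = 0.29 and 0.10). The latter difference was 0.06 without normalization, where the median of all genes was 0.42, and it passed without either GSC colony array (adjusted p = 0.043 and 0.045).

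Of the dimmer Tet3 probes, 1 had the direction of the brightest one against sorted cells. PH_mM_0015878 read 7.78 and 7.85 in GSC colonies, 8.31 and 8.33 in sorted cells, and 7.91 and 7.75 in PGC colonies, and its differences from sorted cells were -0.51 ± 0.11 in GSC colonies and -0.49 ± 0.11 in PGC colonies (limma adjusted p = 0.010 and 0.012), with 1 array of each colony group dim. PH_mM_0015875 read 9.08 and 9.06 in GSC colonies, 9.08 and 8.27 in sorted cells, and 9.04 and 8.00 in PGC colonies, so replicate 2 was the lower array in every group. Its difference between GSC colonies and sorted cells was 0.39 ± 0.38, the opposite sign, and it passed in no comparison (limma adjusted p = 0.39 to 0.78). The positions of these probes within the transcripts are not used here.

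**Figure D3:**
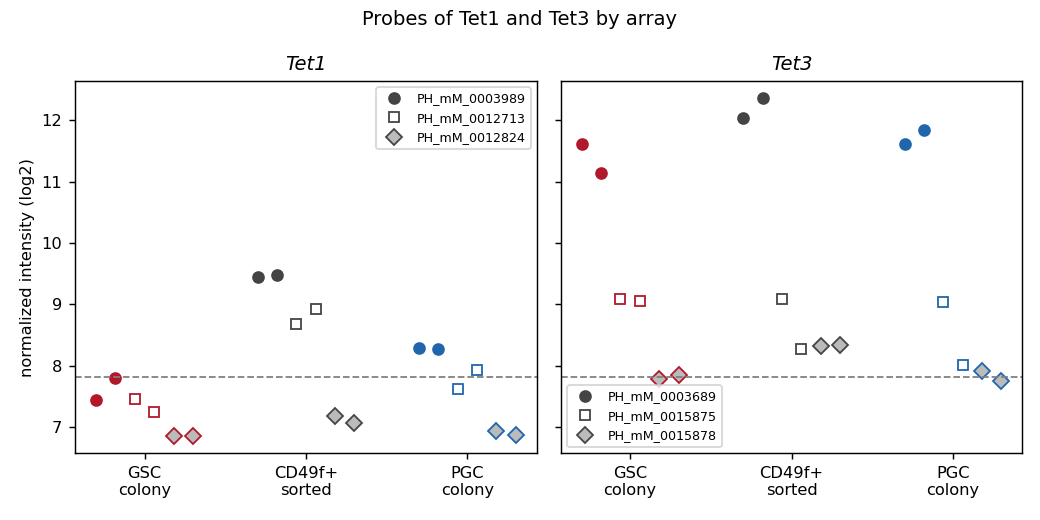
Normalized log2 intensity (vertical axis) of the 3 probes of Tet1 and of Tet3 on each array, by group, with replicate 1 left of replicate 2; the dashed line is the level of 7.82. The Tet1 probes PH_mM_0003989 and PH_mM_0012713 are both highest in sorted cells, while for Tet3 the open squares (PH_mM_0015875) drop on replicate 2 of the sorted and PGC colony groups, to 8.27 and 8.00.

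Tdg, the glycosylase that completes TET-driven demethylation, was close to the dim level throughout. It read 8.02 and 7.03 in GSC colonies, 7.80 and 8.19 in sorted cells, and 7.33 and 7.57 in PGC colonies. Only 2 of the 6 arrays reached the level, 1 GSC colony and 1 sorted array, and GSC colonies overlapped both other groups. Its differences were -0.47 ± 0.32 between GSC colonies and sorted cells, -0.54 ± 0.32 between PGC colonies and sorted cells, and -0.07 ± 0.32 between the colonies (limma adjusted p = 0.28, 0.23 and 0.91). The 95% interval of the first, -1.26 to 0.31, covers changes larger than those of several genes that passed. Without GSC colony replicate 2 the difference of PGC colonies from sorted cells passed (-0.54, adjusted p = 0.032).

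Across the 6 arrays, which share their group structure, Tet1 ran with Dnmt1 (r = 0.96), Dnmt3b (r = 0.95) and Uhrf1 (r = 0.93), Dnmt3a with Tet2 (r = 0.86), and Dnmt3l against Dnmt1 (r = -0.91). These correlations are descriptions over 3 groups of 2 arrays. Dnmt3l was dim on every sorted and PGC colony array and entered only through the GSC colony arrays, where it is high. Nothing further is read from its correlation or from the genes most like it. The genes most like each member were sought by the root mean square difference of centred levels over the 6 arrays among 14663 genes. For Dnmt1 they were Pds5a, B3gntl1 and Usp51 (0.02 to 0.04), and for Uhrf1 they were Ncaph, Stxbp6 and Tef (0.05 to 0.06). For Dnmt3l they were Tns1, Fmr1 and Parva (0.05 to 0.07), for Tet1 Csrnp3, Ddah1 and Klhl11 (0.08 to 0.10), and for Dnmt3a Gar1, Fzd8 and Prkacb (0.05 to 0.06). Tet2 lay closest to Dmac1, Efnb3 and Stac3 (0.06 to 0.09), and Tet3 to Arhgap35, Ppt1 and Trub1 (0.06 to 0.08). Dnmt3b, with its spread-out GSC colony pair, had more distant neighbours in Hk3, Zdhhc21 and Ccnjl (0.12 to 0.16), and so had Tdg in Elane, Ppp1r1c and Slc30a3 (0.09 to 0.12).

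Other genes of the pathway were mostly lower in colonies too, relative to their array. Of 47 listed partners, readers and repair factors, 42 were on the array and 40 tested. Against sorted cells, 21 fell, 5 rose and 14 did not pass in GSC colonies (65%, beside 47.1% of all genes), and 19 fell, 4 rose and 17 did not pass in PGC colonies (57.5%, beside 46%). Between the colonies 5 rose, 3 fell and 32 did not pass (20%, beside 15.1%). Their median differences were -0.52, -0.36 and 0.10. Without normalization between arrays 16 were higher and 11 lower in GSC colonies than in sorted cells, where 8179 of all 15459 genes were higher and 1732 lower. The list median on that scale was 0.03, beside 0.47 over all genes. In PGC colonies 16 were higher and 8 lower than in sorted cells, where 7573 of all genes were higher and 1838 lower.

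Partners and regulators of the writers fell in 9 of 14 cases in GSC colonies and 7 of 14 in PGC colonies against sorted cells, and none passed as higher; all calls together were 64.3% and 50% of the list, the latter near the 46% of all genes. Hells, a chromatin remodeller needed for normal methylation, differed from sorted cells by -1.56 ± 0.21 in GSC colonies and -1.70 ± 0.21 in PGC colonies (limma adjusted p = 0.0013 and 0.00089). Cdca7, its activator, differed by -0.52 ± 0.11 between GSC colonies and sorted cells and by 0.44 ± 0.11 between PGC and GSC colonies (limma adjusted p = 0.010 and 0.049). The Cdca7 call between the colonies was lost without normalization between arrays, with median centring and with cyclic loess (adjusted p = 0.10, 0.082 and 0.060), and that against sorted cells without normalization (0.06, adjusted p = 0.73) and with median centring (adjusted p = 0.059). Hells and Cdca7 were picked for their role after their values were seen. Of 7 genes listed as methyl-CpG readers, 1 rose (Mbd2) and 1 fell (Mbd4) in GSC colonies against sorted cells. In PGC colonies against sorted cells 2 rose (Mbd2 and Mbd3) and 1 fell (Mbd4). These calls were 28.6% and 42.9% of the list, below the 47.1% and 46% of all genes. Mbd2 was 0.99 ± 0.13 higher in GSC colonies and 0.98 ± 0.13 higher in PGC colonies than in sorted cells (limma adjusted p = 0.0010 and 0.0011).

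Demethylation and base excision repair genes fell in 11 of 19 cases in each kind of colony against sorted cells, while 4 rose in GSC colonies (Apobec1, Gadd45a, Neil2 and Polb) and 2 in PGC colonies (Gadd45a and Polb), so that 78.9% and 68.4% of the list passed, beside 47.1% and 46% of all genes. Gadd45b, a stress-induced gene linked to active demethylation, differed from sorted cells by -2.29 ± 0.13 in GSC colonies and -2.56 ± 0.13 in PGC colonies (limma adjusted p = 2.8e-05 and 2.2e-05). Its paralogue Gadd45a went the other way in GSC colonies, 0.95 ± 0.14 higher (limma adjusted p = 0.0018). Neil3, a glycosylase of proliferating cells, differed by -1.90 ± 0.11 and -2.64 ± 0.11 in GSC and PGC colonies (limma adjusted p = 3.2e-05 and 1.1e-05), and Polb, the repair polymerase, rose by 1.00 ± 0.12 in PGC colonies (limma adjusted p = 0.00086). Between the colonies Cxxc5, a CXXC zinc finger gene, rose by 0.84 ± 0.11 and the endonuclease gene Apex1 by 0.56 ± 0.13 in PGC colonies, while Neil2 differed by -0.85 ± 0.12 and the deaminase gene Apobec1 by -0.78 ± 0.12 (limma adjusted p = 0.0046, 0.036, 0.0056 and 0.0084). Without normalization between arrays Gadd45b and Neil3 kept these directions and calls against sorted cells. So did Gadd45a, Mbd2 and Polb, but the median of all genes there moved up to 0.47 and 0.42 in GSC and PGC colonies, which favours rises. Apex1 did not pass between the colonies (0.41, limma adjusted p = 0.12).

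**Figure D4:**
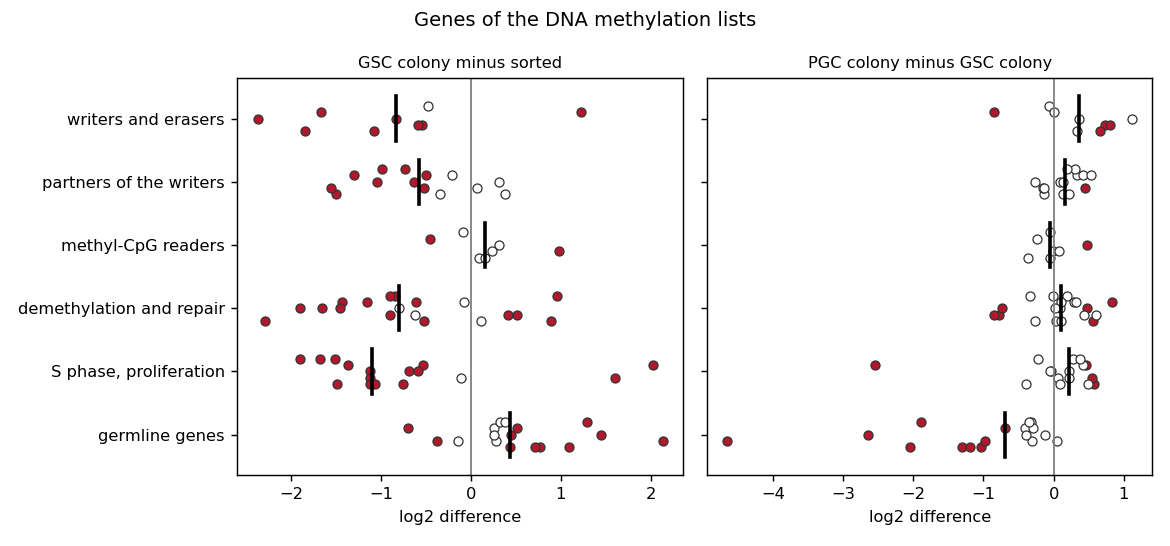
Log2 difference (horizontal axis) of every tested gene of 6 lists between GSC colonies and sorted cells (left) and between PGC and GSC colonies (right); filled points passed at an adjusted p under 0.05 and black bars are list medians. On the left the medians are -0.83 for writers and erasers, -1.09 for S phase genes and 0.44 for germline genes.

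Germline genes, several of which are known to be silenced by promoter methylation in somatic cells, were set beside the enzymes. Of 26 listed, 24 were on the array and 17 tested. In GSC colonies against sorted cells 9 rose, 2 fell and 6 did not pass (median 0.44), and between PGC and GSC colonies 9 fell, 8 did not pass and none passed as higher (median -0.69). In PGC colonies against sorted cells 8 fell, 1 rose and 8 did not pass (median -0.18). Of all genes 22.5% rose and 24.5% fell in the first of these comparisons, 7.08% and 7.98% in the second, and 22.8% and 23.2% in the last. Without normalization between arrays 15 were higher and 1 lower in GSC colonies than in sorted cells (median 0.90), and 5 higher and 4 lower in PGC colonies than in sorted cells. Of all 15459 genes, 8179 were higher and 1732 lower in GSC colonies on that scale (median 0.47), and 7573 higher and 1838 lower in PGC colonies (median 0.42). Taf7l, a germ cell transcription factor subunit, was 10.80 ± 0.03 in GSC colonies, 8.67 ± 0.01 in sorted cells and 9.82 ± 0.28 in PGC colonies (SD, n = 2). It rose by 2.13 ± 0.15 and 1.15 ± 0.15 against sorted cells (limma adjusted p = 7.6e-05 and 0.0012). Dazl, a germ cell RNA-binding gene, rose by 1.45 ± 0.18 in GSC colonies (limma adjusted p = 0.00089). In PGC colonies it was at least 4.87-fold lower than in GSC colonies and at least 1.78-fold lower than in sorted cells. The measured Dazl differences there were -2.64 ± 0.18 and -1.19 ± 0.18 (limma adjusted p = 0.00034 and 0.0022). Tex19.2, a germline gene of the Tex19 pair, was 14.20 ± 0.07 in GSC colonies and 14.57 ± 0.02 in sorted cells but 9.55 ± 0.14 in PGC colonies (SD, n = 2). PGC colonies differed by -4.65 ± 0.12 from GSC colonies and by -5.03 ± 0.12 from sorted cells (limma adjusted p = 1.9e-05 and 3.9e-06). GSC colonies differed from sorted cells by -0.37 ± 0.12 (limma adjusted p = 0.042), and by 0.34 without normalization between arrays (adjusted p = 0.068). Rhox5, an X-linked homeobox gene, was at least 1.30-fold lower in GSC colonies than in sorted cells, with a measured difference of -0.70 ± 0.13 (limma adjusted p = 0.0052). Rhox13 and Syce1, among the 9 that rose in GSC colonies, entered the test only through GSC colony arrays, where they are high. Syce1 was also among the 9 that fell between the colonies. Rhox5 entered only through the sorted arrays, and it was also among the 8 that fell in PGC colonies against sorted cells. The direction of these genes in these calls was built into that choice. Syce1 was among those 8 as well, though dim on all sorted and PGC colony arrays.

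**Figure D5:**
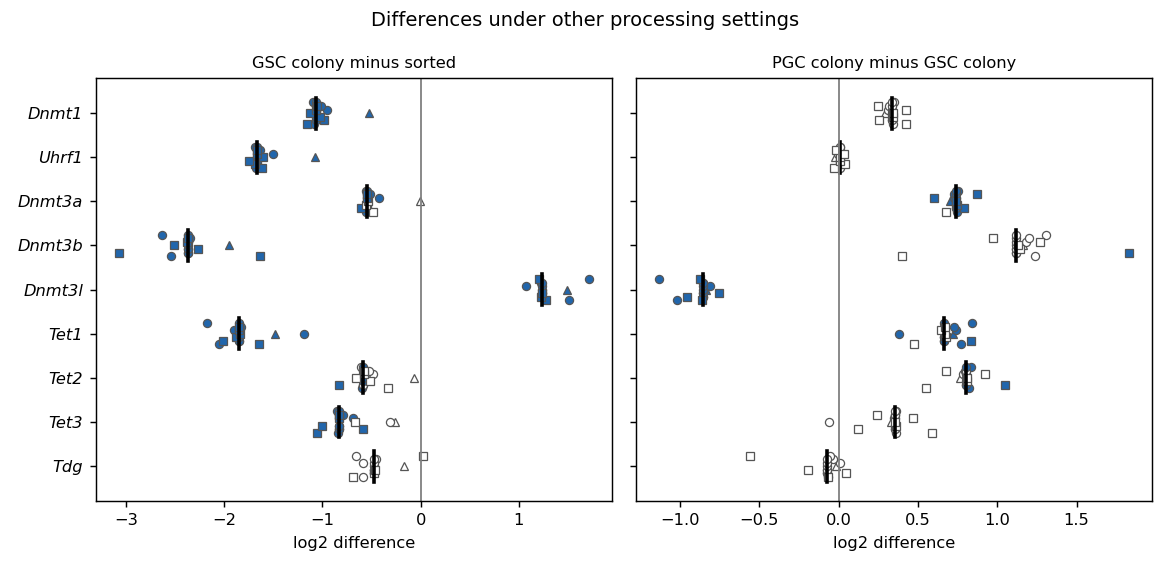
Log2 difference (horizontal axis) of each gene under up to 19 other settings, for GSC colonies against sorted cells (left) and PGC against GSC colonies (right); black bars are the values reported, squares leave out 1 array, triangles have no normalization between arrays, circles are the other settings, and filled symbols passed at an adjusted p under 0.05. On the left the triangles of Dnmt3a and Tet2 lie near 0, at -0.0062 and -0.07, while those of Dnmt1 and Uhrf1 stay at -0.53 and -1.08.

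Of the 8 calls between GSC colonies and sorted cells, those of Uhrf1, Dnmt1, Dnmt3b and Tet1 passed in all 19 settings, with limma adjusted p of at most 0.00098, 0.0089, 0.031 and 0.0017. Those of Dnmt3a, Tet2 and Tet3 were lost without normalization between arrays and on leaving out at least 1 array. Between PGC colonies and sorted cells, Uhrf1 and Tet1 passed in all 19 settings, with limma adjusted p of at most 0.0012 and 0.0091. Between PGC and GSC colonies, Dnmt3a passed in 18 of 19 settings, all but the one without GSC colony replicate 1. Nothing is read from the settings for Dnmt3l, which left the test in 3 of them and entered the others, except the one with no filter, only through the GSC colony arrays.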

How the data were processed

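Single-colour arrays of 6 samples in 3 groups of 2 were used, with groups and replicate numbers from the sample titles. The deposited values are probe intensity on a linear scale, some of them below 0 on 4 arrays (310, 86, 474 and 52 probes); how the spots were scanned, background corrected and scaled is not given in the sources used here. Of 26423 probes, 21876 carried 1 gene symbol, 0 several and 4547 none in the platform's probe table, and probes with no symbol were left out. Intensities were background corrected with normexp (offset 50), put on the log2 scale and quantile normalized. The probe with the highest mean stood for a gene, and the test took genes that reached the 30th percentile of their array on 2 or more arrays (15459 genes).

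All arrays entered 1 fit with a mean per group in R 4.3.3 with limma 3.58.1 (lmFit, eBayes, 3 residual degrees of freedom), with Benjamini-Hochberg adjustment over all genes tested and a threshold of 0.05. The fit was tested on simulated data with independent arrays, which does not bear on whether the pairs here are technical. Intervals use the moderated spread (6.24 degrees of freedom). Each probe of a member was also tested in a fit of 17370 named probes. Summed levels are sums of normalized intensities on the linear scale. A bound sets the dim group to the 30th percentile where that is higher than its own value, and the p-values belong to the measured difference, not to the bound. Promoter windows are RefSeq's, with both strands searched.

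The members, gene lists and settings were chosen with earlier results of these data known. Every member was named. From the other pathway genes and the germline genes, the 2 largest rises and 2 largest falls past the threshold were named in each comparison, and for each member the 3 genes with the closest centred levels, predicted genes left out. The number of arrays limits the precision.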

Additional observations from a re-analysis of the deposited data

How the results depend on the processing

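Over 19 other settings the 27 differences of the 9 genes gave 495 values, of which 434 kept their direction and side of the threshold, 35 no longer passed, 17 newly passed and 9 changed sign. The sign changes were all in differences that had not passed. For Uhrf1 between PGC and GSC colonies they were -0.0249 without normalization between arrays, -0.00247 with median centring, -0.0288 without GSC colony replicate 1 and -0.0177 without PGC colony replicate 2. For Tdg they were 0.0225 between GSC colonies and sorted cells without GSC colony replicate 2, and, between the colonies, 0.00545 with median centring and 0.0491 without PGC colony replicate 1. With 1 array left out these differences ran from -0.0288 to 0.0414 for Uhrf1, and for Tdg from -0.685 to 0.0225 and from -0.56 to 0.0491. For Tet3 they were -0.059 between the colonies with the mean of its probes and 0.0617 between PGC colonies and sorted cells without normalization. Members called between GSC colonies and sorted cells (8) numbered 5 without normalization and 5 to 7 with 1 array left out (5 without GSC colony replicate 1 or sorted replicate 2). Between PGC and GSC colonies (4) they numbered 2 in a fit of only those groups and 0 to 4 with 1 array left out (2 without either sorted or either PGC colony array); the 0 was without GSC colony replicate 1, where 7 members were tested with limma and 5 had an unadjusted p under 0.05. Between PGC colonies and sorted cells (3) they numbered 5 without normalization, 6 in a fit of only those groups and 3 to 6 with 1 array left out (5 and 6 without GSC colony replicates 1 and 2). Other pathway genes called between the colonies (8) numbered 4 without normalization, 5 with median centring, 5 with cyclic loess, 4 in a fit of only those groups and 4 to 6 with 1 array left out, and between PGC colonies and sorted cells (23) 15 to 23, the lowest without sorted replicate 1. Germline genes called between GSC colonies and sorted cells (11) numbered 6 with a filter at the 50th percentile, which tests fewer genes (10), and 6 to 11 with 1 array left out (7 without GSC colony replicate 2 or sorted replicate 1, 6 without sorted replicate 2). The cause of the other shifts was not tested. Without normalization, 8179 genes were higher and 1732 lower in GSC colonies than in sorted cells, against 3486 and 3793, and 7573 were higher and 1838 lower in PGC colonies than in sorted cells, against 3517 and 3594.

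The replicate numbers are not said to pair the arrays. Deviations of same-numbered arrays correlated at -0.342 (GSC colonies and sorted cells), -0.179 (PGC and GSC colonies) and 0.326 (PGC colonies and sorted cells). With the replicate block, other pathway genes called between the colonies numbered 5 in place of 8, and Tet2 between the colonies was the only member call that changed. With the crossed pairing, chosen after seeing the data, members called between PGC colonies and sorted cells numbered 5. Dim values limit Dnmt3l, Tdg and the lower probes of Tet1 and Tet3, which lie near or under the 30th percentile on some or all arrays. They also touch the brightest Tet1 probe, dim on both GSC colony arrays, and Dnmt3b, dim on GSC colony replicate 1.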
